A study of Mus musculus with 8 samples.

Results

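The 37 genes described here are ones that macrophages and other leukocytes express and that fibroblasts are not known for. They were taken by symbol from the deposited table, which lists 22322 genes and holds all 37. RNA was sequenced from 8 samples labelled as primary renal fibroblasts of the mouse. The 4 Ad-Cre samples were infected with an adenovirus carrying Cre recombinase, which cuts out DNA between loxP sites, and are labelled as a Suv39h1 knockdown. The 4 Ad-GFP samples received an adenovirus carrying green fluorescent protein and are labelled wild type. TGF-β was given to both groups, at 5 ng/ml over 48 hours, in DMEM/F12 medium with 10% serum, so the comparison holds no unstimulated sample. The strain, the age of the animals, the Suv39h1 allele and the number of animals or cultures behind the replicates were not given in the sources used here. Every p-value rests on the spread between replicates, which may therefore be technical.

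Macrophages are tissue phagocytes that depend on signals through the colony-stimulating factor 1 receptor and on the transcription factor PU.1. They take up particles through Fc, complement, lectin and scavenger receptors, make complement C1q, and kill microbes with the phagocyte NADPH oxidase. The kidney holds resident macrophages, and fibroblasts support them by secreting colony-stimulating factor 1. In bulk RNA, fewer cells of a type and less RNA of these genes per cell cannot be told apart.

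The Ad-Cre libraries held 18006938 to 23940043 counts and the Ad-GFP libraries 15879244 to 17930632. Suv39h1, the histone H3 lysine 9 methyltransferase that the labels say is depleted, was at 23.1 ± 1.57 CPM (counts scaled to a common library total) in Ad-Cre samples and 28.9 ± 0.774 CPM in Ad-GFP samples (SD, n = 4 each). That is 79.6% of the Ad-GFP level (edgeR quasi-likelihood test, adjusted p = 3.293e-05). The fibroblast label is met in part by its markers. Col1a1, a chain of type I collagen, averaged 131.3 CPM in Ad-Cre samples and 206.5 CPM in Ad-GFP samples, but Lum, Dpt, Tcf21, Pi16 and Fap were at 0.37 CPM or less in both groups. Col1a2, Col3a1 and Pdgfrb averaged 129.5, 43.1 and 25.5 CPM in Ad-Cre samples and 193.8, 54.4 and 27.9 CPM in Ad-GFP samples. Summed over each list, epithelial markers were far more abundant. Krt8, a keratin of simple epithelia, averaged 1167 CPM in Ad-Cre samples and 1503 CPM in Ad-GFP samples. Cdh1 averaged 676.6 and 699.8 CPM and Epcam 326.0 and 276.3 CPM, in the same order. Other epithelial markers were low, with Umod at 7.71 CPM in Ad-Cre samples and 6.88 CPM in Ad-GFP samples. Aqp2 had 0 counts and Slc34a1 2 over all 8 libraries. The 14 kidney epithelial markers summed to 4232 CPM on average in Ad-Cre samples and 4686 CPM in Ad-GFP samples. For the 12 fibroblast markers the sums were 341.6 and 500.1 CPM.

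Macrophage genes were lower after Ad-Cre. Of the 37 genes, 26 fell, 0 rose and 11 did not pass the test (edgeR quasi-likelihood test across all genes, Benjamini-Hochberg adjusted p under 0.05). The share that fell was 70.3%, where 20.5% of the 13337 genes tested fell, 19.8% rose and 40.3% thus changed in either direction. The 37 genes were chosen with earlier results of these data known, so the shares are a description and carry no test. At an unadjusted p under 0.05, 0 of the 37 were higher, and DESeq2 and limma-voom also called 0 higher. The falls were moderate. The median log2 fold change of the 37 genes was -0.43, or 74.4% of the Ad-GFP level, beside a median of 0.0041 over all genes tested. A fall past 1.5-fold was seen in 9 genes and past 2-fold in 0. In 19 genes every Ad-Cre library lay below every Ad-GFP library, as it did in 18.2% of all genes tested. Summed over the 37 genes, Ad-Cre replicates 1 to 4 held 498.4, 513.2, 489.3 and 490.9 CPM, and Ad-GFP replicates 1 to 4 held 634.2, 685.2, 669.6 and 578.3 CPM. The sums do not overlap.

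**Figure D1:**
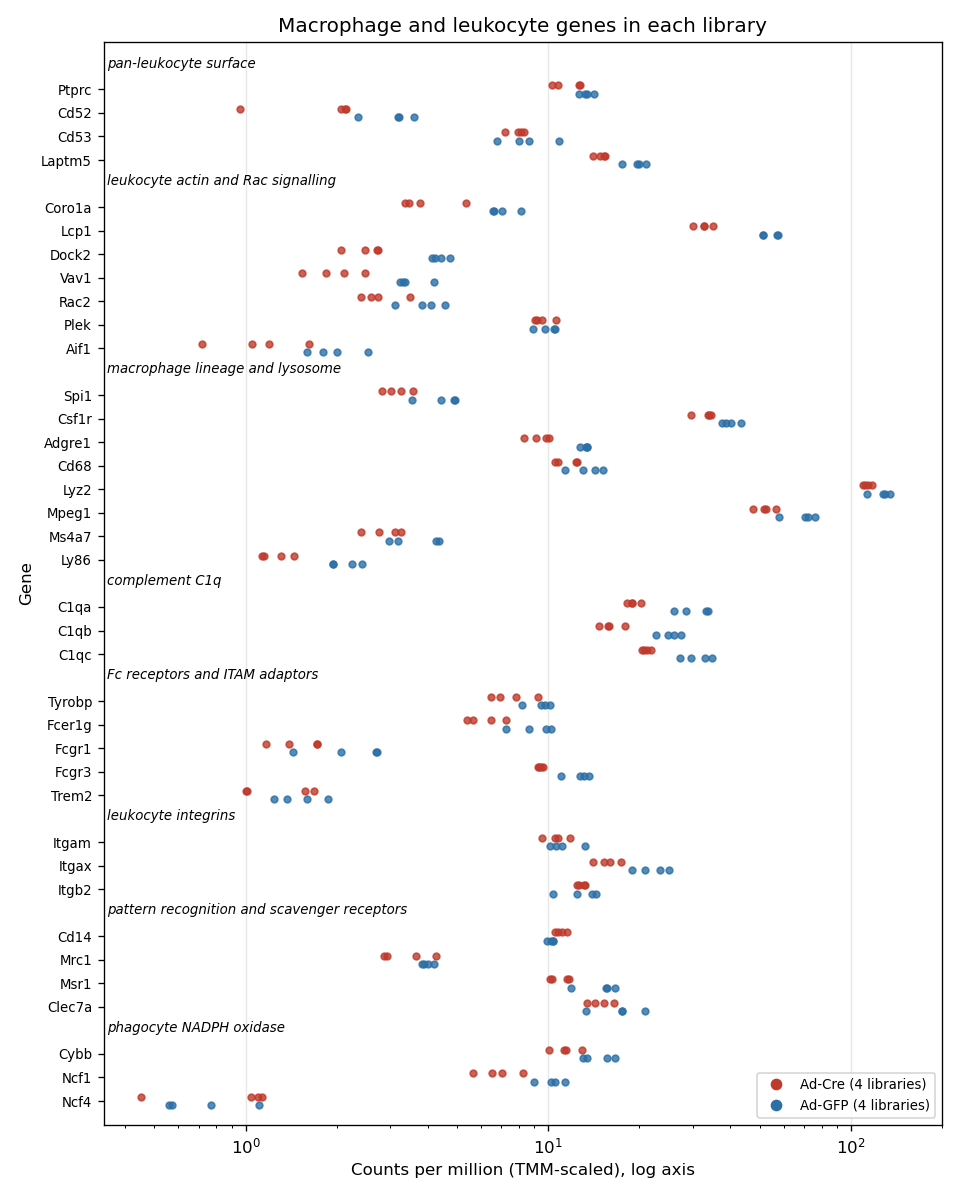
Level of each of the 37 genes in every library, in CPM on a log axis, with the points of the 4 Ad-Cre libraries above those of the 4 Ad-GFP libraries. In 19 genes all Ad-Cre points lie left of all Ad-GFP points. Lyz2 stands far right of the rest at 113.1 CPM on average in Ad-Cre samples and 126.2 CPM in Ad-GFP samples.

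**Figure D2:**
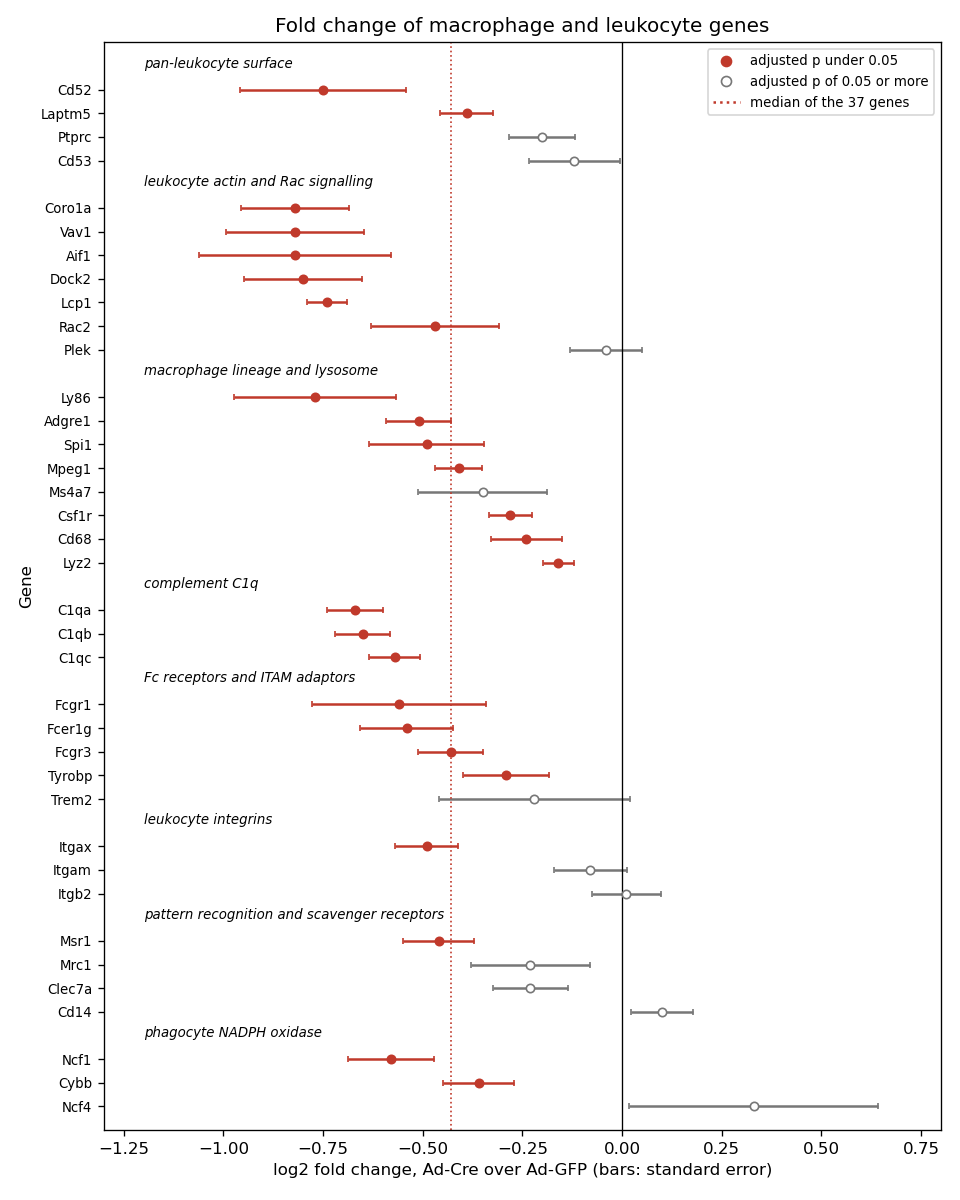
Log2 fold change of each gene, Ad-Cre over Ad-GFP, with its standard error, grouped by role. Filled points passed the test and all 26 lie below 0, while the 11 open points spread from -0.35 (Ms4a7) to 0.33 (Ncf4).

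The genes that define macrophage identity fell in 7 of 8 cases, beside 20.5% of all genes tested. Their median log2 fold change was -0.38. Csf1r encodes the receptor that keeps macrophages alive and dividing. It was at 34.1, 33.7, 34.5 and 29.7 CPM across the Ad-Cre replicates 1 to 4, against 38.8, 40.1, 43.2 and 37.6 CPM in Ad-GFP replicates 1 to 4. No Ad-Cre library reached the Ad-GFP range, and the mean was 82.5% of the Ad-GFP level (log2 fold change -0.28 ± 0.05 (SE), adjusted p = 0.0001708). In FPKM Csf1r was at 72.3% of the Ad-GFP level with overlapping ranges (limma on log2(FPKM + 1), log2 fold change -0.46, adjusted p = 0.02086). The gene length implied by its counts and FPKM was 116.2% of that in Ad-GFP samples. Csf1r also shares 873 exon bases with the more abundant Hmgxb3 on the other strand, as described below. Adgre1, which encodes the F4/80 antigen used to mark mouse macrophages, was at 9.84, 10.1, 8.31 and 9.10 CPM in Ad-Cre samples and at 12.8, 13.4, 13.4 and 13.4 CPM in Ad-GFP samples. Its mean was 70.4% of the Ad-GFP level and its ranges were also apart (adjusted p = 1.666e-05). Mpeg1, whose product perforin-2 forms pores in engulfed bacteria, averaged 52.0 ± 3.70 CPM in Ad-Cre samples and 69.1 ± 7.74 CPM in Ad-GFP samples (SD, n = 4 each, edgeR adjusted p = 3.054e-06). Ly86, which encodes the MD-1 partner of the Toll-like receptor relative RP105, had the largest fold of this group, 58.7% of the Ad-GFP level at 1.13 to 1.45 CPM in Ad-Cre samples and 1.94 to 2.43 CPM in Ad-GFP samples (adjusted p = 0.003744).

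The most abundant of the 37 genes, Lyz2, had the smallest fold change among the 26 that fell. It is the lysozyme gene of mouse macrophages and was at 117.3, 113.9, 111.6 and 109.7 CPM in Ad-Cre samples, against 127.6, 134.4, 129.96 and 112.9 CPM in Ad-GFP samples. The Ad-GFP replicate 4 value lies inside the Ad-Cre range, and the mean was 89.5% of the Ad-GFP level (log2 fold change -0.16 ± 0.04 (SE), edgeR adjusted p = 0.001491). Its near-identical neighbour Lyz1 held 0.0105 CPM in Ad-Cre samples and 0.0277 CPM in Ad-GFP samples, and how the authors assigned reads that both genes share was not given in the sources used here. Cd68, a lysosomal membrane glycoprotein, averaged 84.9% of the Ad-GFP level with overlapping ranges (adjusted p = 0.03623). It lost the call without Ad-GFP replicate 2 (adjusted p = 0.1096), Ad-GFP replicate 3 (0.1525), Ad-Cre replicate 2 (0.0919) or Ad-Cre replicate 4 (0.1126). Ms4a7, a membrane protein of mature macrophages, had a log2 fold change of -0.35 ± 0.16 (SE) and did not pass (edgeR adjusted p = 0.08913), though it did without Ad-GFP replicate 1 (0.0418).

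Spi1 encodes PU.1, the transcription factor that macrophage genes depend on. It was at 3.02, 3.57, 2.83 and 3.26 CPM across the Ad-Cre replicates 1 to 4, against 4.41, 4.92, 4.90 and 3.56 CPM in Ad-GFP replicates 1 to 4. Ad-Cre replicate 2 and Ad-GFP replicate 4 overlap by a small margin, and the mean was 71.4% of the Ad-GFP level (log2 fold change -0.49 ± 0.145 (SE), edgeR adjusted p = 0.00917). On the FPKM scale, which divides by gene length, the call was lost (limma on log2(FPKM + 1), adjusted p = 0.3188).

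PU.1 binds DNA at purine-rich sites with the core GGAA, so the bases before the start of these genes are of interest. RefSeq promoters on GRCm38.p6 were listed for 26 of the 37 genes, and the 250 bases before each start were searched for GAGGAA on both strands. The letters were present in 16 of the 26 genes (61.5%) and in 25.9% of the 27025 genes of the table. Among the 18 genes that fell and had a promoter 9 held them, and among the 8 that did not pass the test 7 did. The longer GAGGAAGT, which contains the shorter motif, was present in 2 of the 26 genes (7.69%), Vav1 and C1qc, and in 2.79% of all genes. A match is a description of these letters and says nothing about binding. The promoters of 3 genes that fell (C1qb, Dock2 and Vav1) and 2 that did not pass (Cd53 and Itgam) are printed because the letters stand in both kinds, and they were picked after the matches were seen. Each is printed 5′ to 3′ on the strand of its gene, with GAGGAA or its reverse complement TTCCTC in capitals.
C1qb, chr4:136886201-136886450, minus strand: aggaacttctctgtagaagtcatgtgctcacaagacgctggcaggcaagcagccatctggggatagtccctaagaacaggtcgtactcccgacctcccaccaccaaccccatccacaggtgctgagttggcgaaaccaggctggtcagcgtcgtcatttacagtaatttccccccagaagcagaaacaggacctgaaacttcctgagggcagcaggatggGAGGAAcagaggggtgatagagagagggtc
Dock2, chr11:34783906-34784155, minus strand: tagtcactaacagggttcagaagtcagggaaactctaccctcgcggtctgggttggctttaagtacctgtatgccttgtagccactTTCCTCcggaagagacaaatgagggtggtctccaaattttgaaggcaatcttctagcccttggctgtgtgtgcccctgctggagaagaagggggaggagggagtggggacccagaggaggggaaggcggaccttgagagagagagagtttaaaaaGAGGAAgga
Vav1, chr17:57278850-57279099, plus strand: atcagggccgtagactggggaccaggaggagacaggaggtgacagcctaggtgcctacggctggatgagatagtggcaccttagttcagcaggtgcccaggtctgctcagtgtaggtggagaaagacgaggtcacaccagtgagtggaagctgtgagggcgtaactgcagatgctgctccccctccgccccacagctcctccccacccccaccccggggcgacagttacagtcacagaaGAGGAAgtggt
Cd53, chr3:106790150-106790399, minus strand: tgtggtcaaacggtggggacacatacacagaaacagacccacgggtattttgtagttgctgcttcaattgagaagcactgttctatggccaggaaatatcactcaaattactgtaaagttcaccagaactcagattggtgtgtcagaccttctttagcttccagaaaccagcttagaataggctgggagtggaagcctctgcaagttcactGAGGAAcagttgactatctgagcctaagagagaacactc
Itgam, chr7:128062390-128062639, plus strand: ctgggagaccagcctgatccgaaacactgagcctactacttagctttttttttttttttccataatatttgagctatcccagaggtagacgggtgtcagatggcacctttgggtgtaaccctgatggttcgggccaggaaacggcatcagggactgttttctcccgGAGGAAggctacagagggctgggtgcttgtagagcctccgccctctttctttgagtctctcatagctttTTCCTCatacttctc
In Vav1 the match begins 11 bases before the start and reads on into GAGGAAGT. In Dock2 the matches begin 9 bases before the start on the strand of the gene and 164 bases before it on the other strand. C1qb has its match 30 bases before the start. In Itgam the matches lie 84 bases before the start on the strand of the gene and 15 bases before it on the other strand, and Itgam did not pass the test.

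The 3 genes of complement C1q fell together, where 20.5% of all genes tested fell. C1qa, C1qb and C1qc encode the chains of the recognition molecule that starts the classical complement pathway, and macrophages are its main source. C1qa was at 18.2, 20.3, 19.0 and 18.9 CPM across the Ad-Cre replicates 1 to 4, against 28.5, 33.8, 33.2 and 26.1 CPM in Ad-GFP replicates 1 to 4. For all 3 genes every Ad-Cre library lay below every Ad-GFP library. C1qa was at 62.8% of the Ad-GFP level (log2 fold change -0.67 ± 0.07 (SE), edgeR adjusted p = 1.89e-08). C1qb averaged 16.1 ± 1.37 CPM in Ad-Cre samples and 25.3 ± 2.07 CPM in Ad-GFP samples (SD, n = 4 each, edgeR adjusted p = 3.139e-08). C1qc averaged 21.1 ± 0.647 CPM in Ad-Cre samples and 31.2 ± 3.39 CPM in Ad-GFP samples (SD, n = 4 each, edgeR adjusted p = 8.559e-08).

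The C1q genes lie side by side on the minus strand of chromosome 4 (GRCm38, GENCODE M21), C1qb at 136880129 to 136886187, C1qc at 136889804 to 136893065 and C1qa at 136895917 to 136898803. Per length their proportions were alike in both groups. The ratio of C1qa to C1qb in FPKM averaged 1.247 ± 0.103 in Ad-Cre samples and 1.26 ± 0.108 in Ad-GFP samples (SD, n = 4 each). The ratio of C1qc to C1qb averaged 1.19 ± 0.0841 in Ad-Cre samples and 1.115 ± 0.085 in Ad-GFP samples. Both ratios overlap between the groups, so the proportions among the 3 chains differed by less than the spread between replicates.

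Fc receptors and their adaptors fell in 4 of 5 cases, beside 20.5% of all genes tested. Their median log2 fold change was -0.43. Fcer1g encodes the Fc receptor gamma chain, an adaptor with an immunoreceptor tyrosine-based activation motif (ITAM). It was at 6.49, 7.23, 5.38 and 5.66 CPM in Ad-Cre samples, against 9.86, 8.62, 10.2 and 7.25 CPM in Ad-GFP samples. The highest Ad-Cre library and the lowest Ad-GFP library are almost level without crossing, and the mean was 68.9% of the Ad-GFP level (edgeR adjusted p = 0.0006226). Fcgr3, a low-affinity receptor for IgG that signals through this chain, averaged 9.41 ± 0.159 CPM in Ad-Cre samples and 12.6 ± 1.1 CPM in Ad-GFP samples (SD, n = 4 each, edgeR adjusted p = 0.0001666). Its homologues Fcgr2b and Fcgr4 were lower in mean without passing the test, at 4.66 and 1.30 CPM in Ad-Cre samples and 5.22 and 1.78 CPM in Ad-GFP samples (adjusted p = 0.326 and 0.09584).

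Other members of the group were called less firmly. Fcgr1, the high-affinity IgG receptor, averaged 67.9% of the Ad-GFP level (log2 fold change -0.56 ± 0.22 (SE), edgeR adjusted p = 0.04257). The call was lost without Ad-GFP replicate 1 (0.1413), Ad-GFP replicate 2 (0.154), Ad-GFP replicate 3 (0.0556), Ad-Cre replicate 1 (0.1126) or Ad-Cre replicate 3 (0.093). Tyrobp, which encodes the ITAM adaptor DAP12, averaged 81.7% of the Ad-GFP level (edgeR adjusted p = 0.03305). It lost the call without Ad-GFP replicate 1 (adjusted p = 0.0786), Ad-GFP replicate 2 (0.0649), Ad-GFP replicate 3 (0.101), Ad-Cre replicate 1 (0.0820), Ad-Cre replicate 3 (0.126) or Ad-Cre replicate 4 (0.0513). Trem2, a lipid receptor that signals through DAP12, was at 1.0 to 1.68 CPM in Ad-Cre samples and 1.24 to 1.88 CPM in Ad-GFP samples, and did not pass (adjusted p = 0.4876).

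Among the leukocyte integrins, 1 of 3 fell, beside 20.5% of all genes tested. Itgax encodes CD11c, an alpha chain of macrophages and dendritic cells. It was at 15.3, 16.1, 14.03 and 17.3 CPM in Ad-Cre samples, against 20.9, 24.99, 23.5 and 18.9 CPM in Ad-GFP samples. The ranges are apart, and the mean was 71.2% of the Ad-GFP level (log2 fold change -0.49 ± 0.08 (SE), edgeR adjusted p = 1.703e-05). Itgam encodes CD11b, the alpha chain of complement receptor 3. It had a log2 fold change of -0.08 ± 0.09 (SE), with 9.51 to 11.8 CPM in Ad-Cre samples and 10.2 to 13.2 CPM in Ad-GFP samples (edgeR adjusted p = 0.5143), and 0.005 without Ad-GFP replicate 1. Itgb2, the beta chain that pairs with both, was at 12.4 to 13.3 CPM in Ad-Cre samples and 10.4 to 14.4 CPM in Ad-GFP samples (edgeR adjusted p = 0.9599). Its log2 fold change of 0.01 ± 0.09 (SE) turned sign under several settings. A predicted gene, Gm49368, shares 3450 exon bases with Itgam on the same strand and held 0.34 CPM.

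Receptors for microbial patterns and for modified lipoproteins fell in 1 of 4 cases, near the 20.5% of all genes tested that fell. Msr1, the class A scavenger receptor, was at 11.7, 11.5, 10.3 and 10.1 CPM in Ad-Cre samples and at 15.5, 15.7, 16.7 and 11.9 CPM in Ad-GFP samples. Ad-GFP replicate 4 is the library nearest to the Ad-Cre range without entering it, and the mean was 72.7% of the Ad-GFP level (edgeR adjusted p = 0.0001915). Cd14, the lipopolysaccharide co-receptor, went the other way in level. It was at 11.5, 11.1, 10.6 and 10.8 CPM in Ad-Cre samples and at 9.91, 10.4, 10.4 and 10.2 CPM in Ad-GFP samples. It is the one gene of the 37 whose Ad-Cre libraries all lay above the Ad-GFP libraries, as in 17.2% of all genes tested, yet its log2 fold change of 0.10 ± 0.08 (SE) did not pass (edgeR adjusted p = 0.3161).

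The lectin receptors gave no call. Mrc1, the mannose receptor, had a log2 fold change of -0.23 ± 0.15 (SE) (edgeR adjusted p = 0.2237). Clec7a, the receptor dectin-1 for fungal glucans, was at 13.4 to 16.5 CPM in Ad-Cre samples and 13.4 to 20.95 CPM in Ad-GFP samples (adjusted p = 0.05597). Without Ad-GFP replicate 4, whose 13.4 CPM was level with the lowest Ad-Cre library, the adjusted p of Clec7a was 0.003133. It also passed without Ad-Cre replicate 3 (0.03245).

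The phagocyte NADPH oxidase makes superoxide inside phagosomes, and 2 of its 3 genes in the set fell, beside 20.5% of all genes tested. Cybb encodes its catalytic subunit gp91phox. It was at 11.3, 12.9, 11.4 and 10.1 CPM in Ad-Cre samples and at 16.7, 15.6, 13.1 and 13.4 CPM in Ad-GFP samples. The ranges come close without overlap, and the mean was 77.8% of the Ad-GFP level (edgeR adjusted p = 0.001929). Ncf1, the organizer subunit p47phox, averaged 6.87 ± 1.1 CPM in Ad-Cre samples and 10.3 ± 1.01 CPM in Ad-GFP samples (SD, n = 4 each, edgeR adjusted p = 0.0001238). It shares 408 exon bases with Gtf2ird2 on the other strand, at 9.89 CPM, and the strand setting of the counting was not given in the sources used here. Ncf4, the regulatory subunit p40phox, was at 0.447 to 1.13 CPM in Ad-Cre samples and 0.56 to 1.11 CPM in Ad-GFP samples. Its smallest count was 8 in a library, and its log2 fold change of 0.33 ± 0.31 (SE) did not pass (edgeR adjusted p = 0.4321). That value was 0.58 without Ad-GFP replicate 2, 0.52 without Ad-Cre replicate 1 and 0.21 without Ad-GFP replicate 1, and none of these passed.

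Of the other genes of NADPH oxidases, 5 of 9 were tested, 2 fell and 1 rose. Over all genes tested 20.5% fell and 19.8% rose. Nox4, the catalytic subunit of the oxidase that fibroblasts and kidney epithelium use, averaged 304.3 CPM in Ad-Cre samples and 278.0 CPM in Ad-GFP samples (109.5%, edgeR adjusted p = 0.0001228). Rac1, the small GTPase expressed in all cell types, averaged 310.7 CPM in Ad-Cre samples and 306.9 CPM in Ad-GFP samples and did not pass (adjusted p = 0.5497).

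Of the 8 role groups, the genes that organise actin in leukocytes had the lowest median log2 fold change, -0.80. In this group 6 of 7 fell, beside 20.5% of all genes tested. The 6 include Rac2, which fell in counts and not in FPKM. Lcp1 encodes L-plastin, the actin-bundling protein of blood cells. It was at 32.6, 32.6, 30.0 and 34.9 CPM across the Ad-Cre replicates 1 to 4, against 51.4, 57.6, 56.8 and 51.1 CPM in Ad-GFP replicates 1 to 4. The ranges lie far apart, and the mean was 60.0% of the Ad-GFP level (log2 fold change -0.74 ± 0.05 (SE), edgeR adjusted p = 1.119e-11). Coro1a, an actin-binding protein of leukocytes, averaged 3.99 ± 0.924 CPM in Ad-Cre samples and 7.09 ± 0.725 CPM in Ad-GFP samples (SD, n = 4 each, edgeR adjusted p = 2.507e-05). Dock2 and Vav1 encode exchange factors that load Rac with GTP. Dock2 was at 57.3% of the Ad-GFP level (adjusted p = 8.935e-05) and Vav1 at 56.8% (adjusted p = 0.0005093), and neither gene's ranges overlap.

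Aif1, which encodes the calcium-binding protein IBA1 of macrophages and microglia, averaged 56.7% of the Ad-GFP level at 0.72 to 1.62 CPM in Ad-Cre samples and 1.60 to 2.54 CPM in Ad-GFP samples (edgeR adjusted p = 0.00838). Without Ad-GFP replicate 2 its adjusted p was 0.0511. Plek, pleckstrin, a protein kinase C substrate of platelets and leukocytes, did not follow the group. It was at 9.06 to 10.6 CPM in Ad-Cre samples and 8.88 to 10.5 CPM in Ad-GFP samples (log2 fold change -0.04 ± 0.09 (SE), adjusted p = 0.7512). On the other strand, Dock2 shares 460 exon bases with 4930403D09Rik, Lcp1 311 with Gm15628, Plek 199 with Cnrip1 and Coro1a 26 with Bola2.

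Rac2, the Rac GTPase of blood cells, fell in counts and not in FPKM. In CPM it was at 2.40, 2.73, 2.59 and 3.49 in Ad-Cre samples and at 3.84, 4.09, 4.55 and 3.12 in Ad-GFP samples. The highest Ad-Cre library exceeds the lowest Ad-GFP library, and the mean was 72.2% of the Ad-GFP level (log2 fold change -0.47 ± 0.16 (SE), edgeR adjusted p = 0.02094). In FPKM it was at 0.91, 1.04, 3.26 and 2.33 in Ad-Cre samples and at 1.27, 1.86, 1.51 and 1.04 in Ad-GFP samples, a mean of 132.7% of the Ad-GFP level (limma on log2(FPKM + 1), log2 fold change 0.18, adjusted p = 0.5891). Ad-Cre replicates 3 and 4 stand above the rest in FPKM alone.

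The length implied by each Rac2 count and its FPKM was 2624, 2611, 789 and 1485 bases in Ad-Cre samples, against 3040, 2219, 3033 and 3028 bases in Ad-GFP samples. GENCODE M21 lists 3 Rac2 transcripts of 254 to 3038 bases. A change of implied length past 1.5-fold between the groups occurred in 9 of 11671 genes (0.0771%), Rac2 among them. With an exact two-sided permutation test over the 8 libraries, the p was 0.0571 for CPM, 0.543 for FPKM and 0.0857 for the implied length. The authors' deposited table gives Rac2 a log2 fold change of 0.41 and an FDR of 0.0671. The count-based call was lost without Ad-GFP replicate 2 (edgeR adjusted p = 0.0551), Ad-GFP replicate 3 (0.0839), Ad-Cre replicate 1 (0.0590) or Ad-Cre replicate 3 (0.0558). No direction is therefore given to Rac2 beyond its unit.

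**Figure D3:**
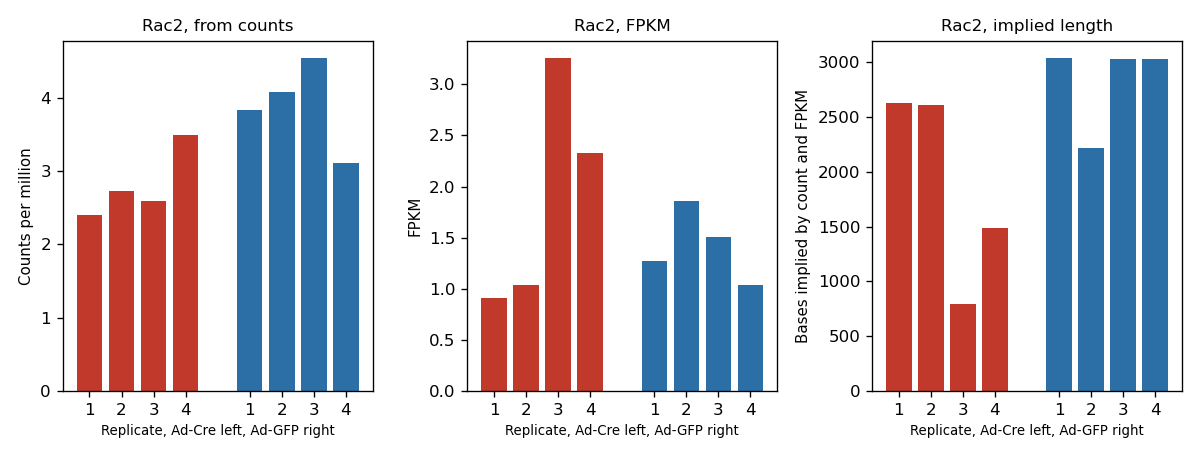
Rac2 in each library as CPM, as FPKM and as the gene length implied by the ratio of count to FPKM, with Ad-Cre libraries left of Ad-GFP libraries. Ad-Cre replicates 3 and 4 have implied lengths of 789 and 1485 bases and the 2 highest FPKM values, while their CPM values lie below those of Ad-GFP replicates 1 to 3.

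Among genes that most leukocytes express on their surface or in lysosomes, 2 of 4 fell, beside 20.5% of all genes tested. Laptm5, a lysosomal membrane protein that restrains immune receptors, was at 15.3, 14.8, 14.1 and 15.4 CPM in Ad-Cre samples and at 21.1, 20.0, 19.6 and 17.6 CPM in Ad-GFP samples. The ranges are apart, and the mean was 76.2% of the Ad-GFP level (log2 fold change -0.39 ± 0.07 (SE), edgeR adjusted p = 4.082e-05). Cd52, a small glycosylated surface peptide, averaged 1.83 ± 0.577 CPM in Ad-Cre samples and 3.09 ± 0.528 CPM in Ad-GFP samples (SD, n = 4 each, edgeR adjusted p = 0.005657).

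Ptprc encodes CD45, the phosphatase found on all nucleated blood cells. It was at 10.7, 12.7, 10.3 and 12.7 CPM in Ad-Cre samples and at 12.6, 14.2, 13.5 and 13.2 CPM in Ad-GFP samples. Ad-GFP replicate 1 lies inside the Ad-Cre range, and the mean of 87.2% of the Ad-GFP level missed the threshold (log2 fold change -0.20 ± 0.08 (SE), edgeR adjusted p = 0.05898). Ptprc passed when Ad-Cre replicate 2 was left out (adjusted p = 0.02999) or Ad-Cre replicate 4 (0.03316). Cd53, a tetraspanin of leukocytes, had a log2 fold change of -0.12 ± 0.11 (SE) (adjusted p = 0.422), and 0.011 without Ad-GFP replicate 3.

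Ratios taken inside each library describe how the macrophage genes moved against each other. These ratios were chosen after the values were seen and carry no test. The summed CPM of the 3 C1q genes was 46.1, 49.9, 49.5 and 53.6% of Lyz2 in Ad-Cre samples and 63.2, 71.6, 71.0 and 69.3% in Ad-GFP samples. The ratio of Lcp1 to Ptprc was 3.04, 2.58, 2.92 and 2.74 in Ad-Cre samples and 4.07, 4.07, 4.22 and 3.87 in Ad-GFP samples. In both ratios the groups lie apart. Lyz2 made up 22.7 ± 0.603% of the summed CPM of the 37 genes in Ad-Cre samples and 19.7 ± 0.315% in Ad-GFP samples (SD, n = 4 each). The ratio of Itgax to Itgam averaged 1.48 in Ad-Cre samples and 1.98 in Ad-GFP samples with overlapping ranges.

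**Figure D4:**
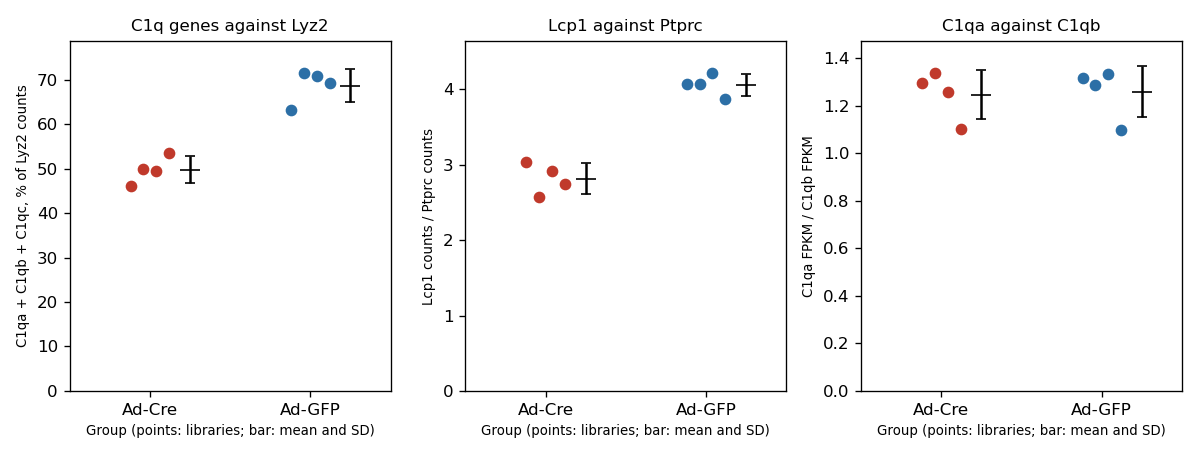
Ratios between macrophage genes inside each library, with Ad-Cre libraries left of Ad-GFP libraries. The C1q share of Lyz2 and the ratio of Lcp1 to Ptprc separate the groups, at means of 49.8% and 2.82 in Ad-Cre samples and 68.8% and 4.06 in Ad-GFP samples, while the ratio of C1qa to C1qb overlaps.

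Per length, Lyz2 led the 37 genes with a mean of 85.3 FPKM in Ad-Cre samples and 96.6 FPKM in Ad-GFP samples. The C1q genes followed, C1qa at 18.2 FPKM in Ad-Cre samples and 29.5 FPKM in Ad-GFP samples. Mrc1, Dock2 and Ncf4 stood at the bottom in Ad-GFP samples, at 0.633, 0.385 and 0.678 FPKM in Ad-Cre samples and 0.748, 0.70 and 0.535 FPKM in Ad-GFP samples. The genes under a mean of 5 CPM number 12, of which 8 fell, beside 20.5% of all genes tested.

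Among the colony-stimulating factors and related genes, the 2 ligands of Csf1r rose and Csf3 fell. Csf3 averaged 1.99 CPM in Ad-Cre samples and 3.04 CPM in Ad-GFP samples with overlapping ranges (edgeR adjusted p = 0.009958). Of the colony-stimulating factors and their other receptors 5 of 8 were tested, with 2 that rose and 1 that fell, beside 20.5% of all genes that fell and 19.8% that rose. Csf1, the ligand of the Csf1r receptor, averaged 371.8 ± 4.78 CPM in Ad-Cre samples and 335.4 ± 7.99 CPM in Ad-GFP samples (SD, n = 4 each, edgeR adjusted p = 7.66e-06). Il34, the second ligand of that receptor, averaged 19.5 ± 1.49 CPM in Ad-Cre samples and 15.6 ± 1.01 CPM in Ad-GFP samples (SD, n = 4 each, edgeR adjusted p = 0.0007388). So both ligands rose while their receptor fell. Of 10 myeloid transcription factors besides Spi1, 9 were tested, 3 fell (Irf8 and Irf5 among them) and 1 rose (Runx1). Irf8, which directs monocyte and dendritic cell fates, averaged 2.66 ± 0.36 CPM in Ad-Cre samples and 5.23 ± 0.574 CPM in Ad-GFP samples (SD, n = 4 each, edgeR adjusted p = 4.757e-06). Runx1 averaged 165.8 CPM in Ad-Cre samples and 149.7 CPM in Ad-GFP samples (adjusted p = 0.0004311). Cebpb averaged 37.7 CPM in Ad-Cre samples and 39.3 CPM in Ad-GFP samples and did not pass (adjusted p = 0.3104).

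Other macrophage genes outside the 37 fell in 15 of the 31 tested of 42 listed, and 0 rose. Over all genes tested 20.5% fell and 19.8% rose. Of the other macrophage genes DESeq2 called 9 lower and limma-voom 14, and at an unadjusted edgeR p under 0.05 1 was higher. Mmp12, the macrophage elastase, averaged 43.7 ± 1.88 CPM in Ad-Cre samples and 60.0 ± 1.70 CPM in Ad-GFP samples (SD, n = 4 each, edgeR adjusted p = 1.565e-09). Gpnmb, a lysosomal glycoprotein of lipid-laden macrophages, averaged 122.0 CPM in Ad-Cre samples and 155.2 CPM in Ad-GFP samples (adjusted p = 8.268e-06). Apoe, a lipid carrier that macrophages secrete, averaged 62.8 CPM in Ad-Cre samples and 75.3 CPM in Ad-GFP samples (adjusted p = 1.395e-05). Several genes of particular macrophage or monocyte states were nearly silent. Over all 8 libraries the scavenger receptor Cd163 had 1 count, Marco 4, the apoptotic cell receptor Timd4 5 and the monocyte chemokine receptor Ccr2 12, all named after their values were seen.

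Further genes of ITAM signalling fell in 7 of 15 tested, and further genes of the leukocyte cytoskeleton in 9 of 20. Over all genes tested 20.5% fell and 19.8% rose. DESeq2 called 7 and 8 of the 2 lists lower, and limma-voom 7 and 9. Inpp5d, which encodes the inositol phosphatase SHIP1, averaged 4.38 CPM in Ad-Cre samples and 7.93 CPM in Ad-GFP samples (edgeR adjusted p = 1.669e-06). Rasal3, a Ras GTPase-activating protein of blood cells, averaged 1.15 CPM in Ad-Cre samples and 2.43 CPM in Ad-GFP samples (adjusted p = 0.0002105). The most abundant genes of these lists did not pass the test. Plcg2, Lyn, Skap2 and Arhgdib averaged 45.4, 45.1, 110 and 26.8 CPM in Ad-Cre samples and 46.4, 44.3, 109.5 and 27.7 CPM in Ad-GFP samples. Of 15 activation markers 8 were tested and 1 fell, beside 20.5% of all genes tested. It was Cd40, at 17.8 CPM in Ad-Cre samples and 21.5 CPM in Ad-GFP samples (edgeR adjusted p = 0.002904). Il10, Ccl22, Chil3 and Retnla had 0 counts in all 8 libraries, which allows up to 0.0196 CPM over the pooled total, by counting error only.

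Most markers of lymphocytes were at or near 0. For T and NK cells 3 of 18 markers were tested and 0 changed, and 9 had 0 counts in every library, among them Cd3e, Cd3d, Cd8a, Cd2, Nkg7 and Ncr1. Their summed level was 5.13 to 7.89 CPM in Ad-Cre samples and 5.79 to 6.63 CPM in Ad-GFP samples, most of it Lck and Cd4. For B and plasma cells 0 of 9 were tested, with sums of 0.544 to 0.720 CPM in Ad-Cre samples and 0.688 to 1.03 CPM in Ad-GFP samples, and Blk at 0 counts. Neutrophil and mast cell markers summed to 17.9 to 19.2 CPM in Ad-Cre samples and 20.97 to 25.3 CPM in Ad-GFP samples. Kit and Mmp9 made up most of that sum, and S100a9, Mpo, Elane, Camp, Retnlg, Cpa3 and Tpsb2 were at 0 counts. Mmp9 averaged 4.38 CPM in Ad-Cre samples and 8.36 CPM in Ad-GFP samples (edgeR adjusted p = 1.455e-07).

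The sums of the dendritic and platelet markers came mostly from a few genes. Dendritic cell markers summed to 28.5 to 32.3 CPM in Ad-Cre samples and 30.6 to 36.3 CPM in Ad-GFP samples. Most of that was Bst2, at 21.8 CPM in Ad-Cre samples and 26.2 CPM in Ad-GFP samples, and Zbtb46, at 7.36 and 6.10 CPM. Xcr1, Clec9a, Itgae and Cd207 were at 0.12 CPM or less in both groups, and Ccr7, Siglech and Cd209a at 0 counts. Of 3 tested genes 1, Bst2, fell, beside 20.5% of all genes tested. Red cell and platelet markers summed to 25.7 to 31.1 CPM in Ad-Cre samples and 44.9 to 47.7 CPM in Ad-GFP samples. Most of that was Ppbp, a platelet chemokine, at 25.3 CPM in Ad-Cre samples and 44.4 CPM in Ad-GFP samples (edgeR adjusted p = 1.36e-11), while Gp9, Hbb-bs and Hbb-bt were at 0 counts. Pf4, another platelet chemokine, was at 1.14 CPM in Ad-Cre samples and 1.28 CPM in Ad-GFP samples.

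Markers of several other cell types were also lower, where 20.5% of all genes tested fell and 19.8% rose. Of the endothelial markers 14 of 15 were tested and 13 fell. Their median log2 fold change was -0.99, and they summed to 94.1 to 104.7 CPM in Ad-Cre samples and 191.9 to 198.0 CPM in Ad-GFP samples. Cdh5, the endothelial cadherin, averaged 18.9 CPM in Ad-Cre samples and 39.4 CPM in Ad-GFP samples (edgeR adjusted p = 8.578e-14). Proliferation markers fell in 13 of 14 cases, with sums of 164.4 to 172.1 CPM in Ad-Cre samples and 243.8 to 258.4 CPM in Ad-GFP samples. Fibroblast markers fell in 4 of 7 tested of 12, with sums of 311.8 to 367.0 CPM in Ad-Cre samples and 484.0 to 527.3 CPM in Ad-GFP samples. Kidney epithelial markers went both ways, with 4 that fell and 5 that rose of 12 tested, and sums of 4197 to 4282 CPM in Ad-Cre samples and 4612 to 4780 CPM in Ad-GFP samples. The part that these cell types or cell division had in the levels of the macrophage genes was not tested.

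**Figure D5:**
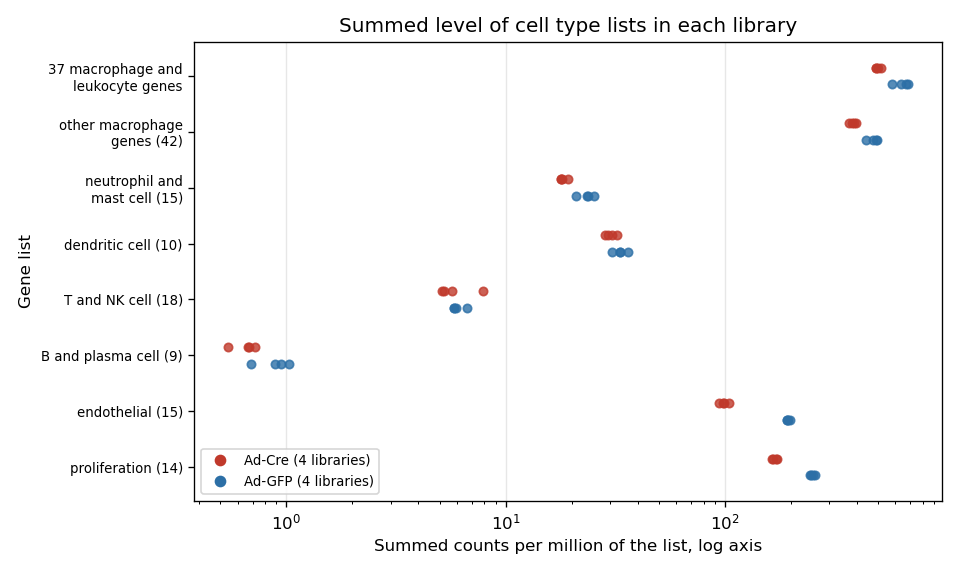
Summed CPM of each gene list in every library on a log axis, with the Ad-Cre libraries above the Ad-GFP libraries and the number of genes listed in brackets. The 37 macrophage and leukocyte genes in Ad-Cre samples sum to 77.6% of the Ad-GFP level, and the T and NK cell sums overlap between the groups.

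In the authors' deposited table, 22 of the 37 genes have an FDR under 0.05, all with a negative log2 fold change, where 9.76% of its 22322 genes do. Those 22322 include genes too low for the filter used here, which 13337 genes passed, all 37 among them. The 2 shares are thus not over like genes. All 22 also fell in the test used here, and the 4 that fell here alone are Rac2, Cd68, Tyrobp and Fcgr1. Csf1r shares 873 exon bases with Hmgxb3 on the other strand. Hmgxb3 also fell, at 83.0 CPM in Ad-Cre samples and 92.0 CPM in Ad-GFP samples (log2 fold change -0.15, edgeR adjusted p = 0.0005584). Without a stated strand setting reads of the 2 genes cannot be told apart there, and the part of Hmgxb3 in the Csf1r value was not tested.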

How the data were processed

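RNA sequencing of 8 libraries, 4 Ad-Cre and 4 Ad-GFP, was deposited as one table. Its columns hold deposited counts, whole numbers of reads for each gene, and the authors also deposited FPKM values, a log2 fold change of group means and FDR values adjusted from p-values, per the file headers. GRCm38 and mm10 are named in the submitters' processing notes, while the aligner, counter and strand setting were not given in the sources used here. Dividing count by FPKM gives a gene length that differs between libraries, so the counts may be rounded estimates.

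Counts were tested with edgeR 4.0.16 in R 4.3.3 (filterByExpr, TMM, quasi-likelihood F-test, two-sided, Benjamini-Hochberg over the 13337 genes that passed, threshold 0.05). All 37 genes passed the filter, and 36 of them had at least 10 counts in every library. "Rose" and "fell" are used for genes past the threshold. CPM values use TMM-scaled totals, and FPKM is the scale for comparing levels between genes. The SE is that of the log2 fold change. The alternatives were RLE and upper-quartile factors, no filter, DESeq2 1.42.0, limma-voom (limma 3.58.1), a filter at a mean of 5 CPM or more, the replicate number as a block, limma on log2(FPKM + 1) and log2(FPKM + 0.1) where the mean FPKM was 1 or more, each library left out in turn, and thinning to the smallest total. Exact permutation tests used scipy 1.17.1.

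The members and lists were chosen with earlier results of these data known. All 37 genes are named, with Suv39h1, and from each other list the 2 tested genes of highest CPM and the called gene of smallest p were taken. Other names were chosen after their values were seen. Some listed genes are not reported here. Gene positions and shared exon bases came from GENCODE M21, and promoters from RefSeq on GRCm38.p6. No set test was run.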

Additional observations from a re-analysis of the deposited data

Results flagged for a closer look

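In 4 of 74 groups of 4 libraries, 1 library stood apart from the other three by Dixon's criterion, which chance alone meets in about 1 in 20 groups. Cd52 was lowest in Ad-Cre replicate 3 at 0.961 CPM, with 2.07 to 2.14 CPM in the other Ad-Cre libraries. Vav1 was highest in Ad-GFP replicate 3 at 4.19 CPM, with 3.25 to 3.37 CPM in the other Ad-GFP libraries. Adgre1 was lowest in Ad-GFP replicate 1 at 12.8 CPM, with 13.4 CPM in the other Ad-GFP libraries, a gap that is small in level. Ncf4 was lowest in Ad-Cre replicate 1 at 0.447 CPM, with 1.04 to 1.13 CPM in the other Ad-Cre libraries. Cd52, Vav1 and Adgre1 kept their calls without each library in turn, and Ncf4 was not called with or without any of them.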

How the results depend on the processing

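The number of the 37 genes that fell was 26 with RLE factors, 28 with upper-quartile factors, 27 without a filter, 20 of 25 at a mean of at least 5 CPM, 23 with DESeq2, 25 with limma-voom, 20 of 32 on each FPKM scale and 21 to 27 when 1 library was left out (lowest without Ad-GFP replicate 2). The number that rose was 0 in all of these. The median log2 fold change stayed between -0.49 and -0.36. Of the 26 genes, 20 fell in every alternative that tested them. Over all genes, 5370 were called, against 3530 with limma on log2(FPKM + 1) and 3520 on log2(FPKM + 0.1), each of 11679 genes tested. Upper-quartile factors gave 2164 higher and 3089 lower calls, where TMM gave 2641 higher and 2729 lower. Rac2 turned to 0.18 and 0.23 on the FPKM scales, where Cd68 lost its call (limma adjusted p = 0.0711 on each). Itgb2, not called, turned to -0.013 with upper-quartile factors, -0.009 at 5 CPM, -0.054 and -0.061 on the FPKM scales, -0.007 after thinning, and spanned -0.085 to 0.073 with 1 library left out. Itgam spanned -0.13 to 0.005 and Cd53 -0.21 to 0.011. DESeq2 lost Cd68 (adjusted p = 0.0633), Tyrobp (0.0510) and Fcgr1 (0.0736), and limma-voom lost Fcgr1 (0.061). Thinning every library to 15879244 counts, added after the data were seen, left 24 that fell. After it Cd68 (edgeR adjusted p = 0.0502) and Fcgr1 (0.0699) missed the threshold, and Ly86 (0.006847) and Aif1 (0.02592) kept their calls. The log2 fold change of Ncf4 was then 0.16. The deviations of same-numbered Ad-Cre and Ad-GFP libraries had correlations of 0.0467, 0.0971, 0.0115 and -0.0131. Low correlations cannot exclude that such libraries share a culture or animal. The labels state no pairing, so the main test used none. With the replicate number as a block, 5390 genes were called and 27 of the 37 fell, Fcgr1 missing the threshold (adjusted p = 0.051) and Clec7a (0.02376) and Ptprc (0.04523) passing it. On log2(FPKM + 1), which shrinks the change of low genes, Aif1 was at -0.54, Ly86 at -0.46 and Ncf1 at -0.37.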
